A study of Mus musculus with 10 samples.

Results

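The comparison set 2 libraries of etoposide-treated cells against the 2 untreated libraries that the labels name as their controls, replicate 1 to replicate 1 and replicate 2 to replicate 2. These are 4 of the 10 libraries of the series. Of their 27848 rows, 27815 lay on chromosomes 1 to 19 and X and were used, and 16207 of those were prey, meaning that the joined position was over 1 Mb away from position 41554973 of chromosome 6 (mm10), where the bait breaks. All 4 libraries were genomic DNA of Abelson-transformed pre-B cells of C57BL/6 origin with the genotype LIG4-/-. The controls carry that deletion too, so any join formed in these cells was made without the ligase of classical end joining. In every group imatinib, which blocks the transforming Abl kinase, was given for 48 h to hold the cells in G1. Doxycycline at 1 µg/ml, added 24 h into that treatment, switched on a zinc-finger nuclease that cuts the bait. The etoposide libraries also received 50 µM etoposide for 2.5 h, followed by washing and 12 h in fresh medium. The labels do not say whether untreated cells were washed and cultured in the same way, how many cell lines were used, or whether replicates were separate cultures, so p-values between libraries measure a spread that may be technical.

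Topoisomerase II relieves twisting and tangling of DNA by cutting both strands and closing them again, and etoposide holds the enzyme in its cut state so that breaks remain. It is known to act at active gene starts and at the bases of chromatin loops. In the translocation assay used here, sequencing starts in DNA on 1 side of the bait break and runs across the join into the prey, so each row reports where and in which direction the bait end was joined. Pre-B cells held in G1 express the RAG recombinase, which cuts the immunoglobulin kappa locus, and joins there give a second source of breaks that does not depend on etoposide.

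Depth differed between the libraries. Untreated replicates 1 and 2 held 2044 and 6332 rows and etoposide replicates 1 and 2 held 11730 and 7742. Junctions within 1 Mb of the bait, used below as the scale, numbered 1124 and 5273 in the untreated and 1198 and 4013 in the etoposide libraries. The pair of replicate 1 shared a sequencing run and the pair of replicate 2 did not. Median prey alignments were 253 and 271 bp in untreated and etoposide replicate 1 but 67.5 and 75 bp in replicate 2. Off chromosome 6, 11 exact positions were shared by untreated and etoposide replicate 1, against 0 to 3 for the other pairs of libraries. The label of a pre-B cell was set against the antigen receptor loci. The kappa locus held 237 and 685 junctions without and 201 and 422 with etoposide, whereas the loci of the T-cell receptor alpha, delta and gamma chains together held 0 to 6 per library. The immunoglobulin heavy-chain locus was as low, with 0 and 0 without and 2 and 2 with etoposide. Only the kappa locus among these lies on the bait chromosome, so cell type and position cannot be told apart in this contrast.

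The sequence of the bait is given first, because the place on it where etoposide prey was joined turned out to differ from that of untreated prey. It was read from the deposited reads and lies at chr6:41554825-41554973 on the plus strand (mm10), between the primer and the break. The capitals mark the 7 bases, positions 41554898 to 41554904, that are counted below as a stretch in which many etoposide joins lay.
bait: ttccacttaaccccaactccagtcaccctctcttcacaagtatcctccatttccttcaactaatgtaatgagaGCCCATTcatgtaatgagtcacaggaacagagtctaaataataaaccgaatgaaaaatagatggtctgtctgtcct

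In each pair the etoposide library had more prey per junction near the bait on every chromosome. Off chromosome 6 the rise of single chromosomes was 4.45-fold to 17.1-fold in replicate 1 and 5.46-fold to 25.1-fold in replicate 2. Outside chromosome 6 and the antigen receptor loci there were 615 and 245 prey junctions in untreated replicates 1 and 2 and 6430 and 2046 in the etoposide libraries. Per 1000 junctions near the bait these were 547 and 46.5 without and 5367 and 510 with etoposide. Each etoposide library lay above its own control, but etoposide replicate 2 lay below untreated replicate 1, so the groups overlapped and the comparison rests on the pairing. The rise was 9.81-fold in replicate 1 (95% interval 8.73 to 11.0) and 11.0-fold in replicate 2 (9.55 to 12.6), where the intervals cover counting error only. On the log2 scale the mean rise was 3.38. The exact permutation test within pairs, two-sided, gave p = 0.5, the smallest that 2 pairs allow. The kappa locus fell to 0.796 of its control in replicate 1 (0.648 to 0.977) and 0.809 in replicate 2 (0.712 to 0.920) on the same scale. Etoposide also added junctions between 100 kb and 1 Mb of the bait, and per junction within 100 kb the kappa ratios were 0.939 (0.764 to 1.15) and 0.823 (0.724 to 0.936), so in replicate 1 the interval then included no change.

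All 20 chromosomes were higher with etoposide at a limma adjusted p under 0.05, which is 100.0% of those tested. Chromosome 6, which carries the bait, rose most in this fit, by 4.82 ± 0.403 (SE) on the log2 scale (limma adjusted p = 2.87e-09), and the others rose by 2.43 to 4.27 with a median of 3.42. This place depends on leaving out the antigen receptor loci, since the kappa locus lies on chromosome 6. With these loci kept, chromosome 6 rose by 2.56 on the log2 scale (limma adjusted p = 3.96e-06), the smallest rise but that of chromosome 2. With them left out, the smallest rise was that of chromosome 2. There the window from 90 to 100 Mb held 83 junctions in untreated replicate 1 and 80 in etoposide replicate 1, against 1 and 16 in replicate 2. The largest was that of chromosome 4, with 27 and 8 junctions without and 459 and 153 with etoposide. All chromosomes share 1 pooled estimate of the spread in this fit, and the fit takes the replicate number as a block. Because that spread is pooled over chromosomes of the same 4 libraries, the SE and p-values do not measure how far the 2 pairs differ. For chromosome 6 the pairs rose by 5.92 and 3.74 on the log2 scale. The exact permutation test within pairs, two-sided, gave p = 0.5 for that chromosome. Without the block 0 of 20 chromosomes passed (lowest limma adjusted p = 0.228), and 0 had an unadjusted p under 0.05.

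Chromosome 6 differed from the rest by an amount that depended on the replicate. It had 60 and 123 prey junctions outside antigen receptor loci without and 3877 and 1250 with etoposide. Per 1000 junctions near the bait these were 53.4 and 23.3 without and 3236 and 311 with etoposide, a rise of 60.6-fold in replicate 1 (46.4 to 79.2) and 13.4-fold in replicate 2 (11.0 to 16.1). Relative to the other chromosomes, the rise of chromosome 6 was 6.18 times as large in replicate 1 (4.73 to 8.08) and 1.22 times in replicate 2 (0.969 to 1.53). Untreated replicate 1 stood apart in this respect. Its density on chromosome 6 was 1.88 times the median of the other chromosomes, against 9.43 in untreated replicate 2 and 9.80 and 9.98 in the etoposide libraries. Scaled to prey outside chromosome 6, that chromosome alone passed the test among 20 (5.0%), with a log2 difference of 1.45 and a limma adjusted p of 0.0439.

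**Figure D1:**
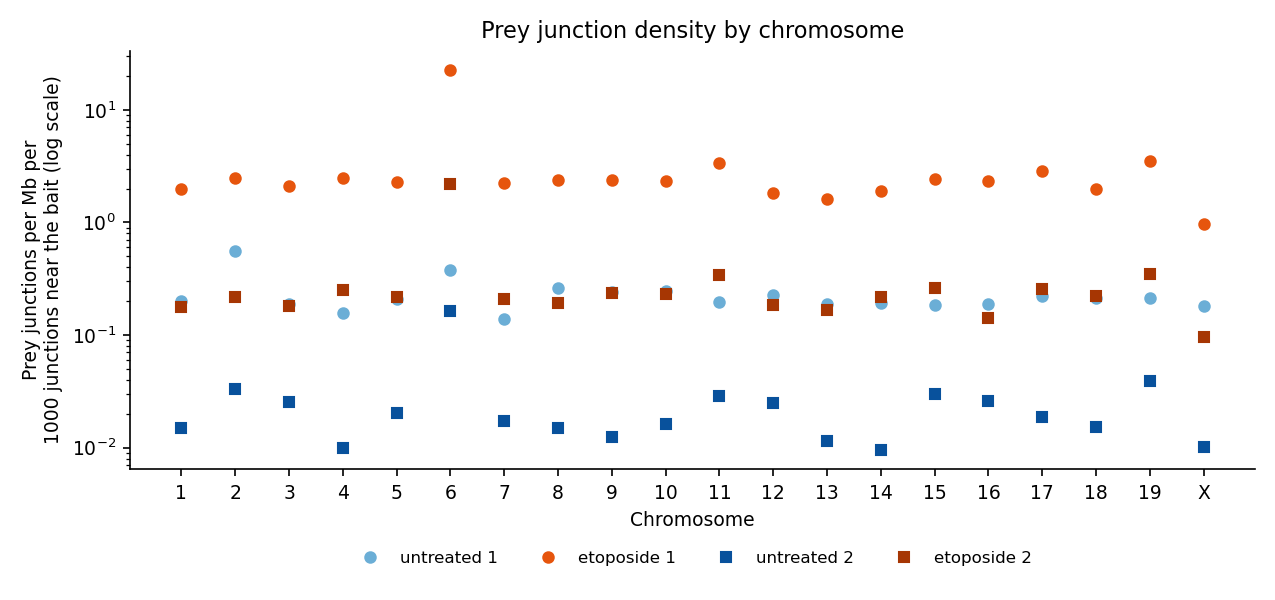
Prey junctions per Mb and per 1000 junctions within 1 Mb of the bait (log axis) for each chromosome, 1 point per library, antigen receptor loci left out. Each etoposide library lies above its own control on every chromosome, chromosome 6 is the highest point in both etoposide libraries, and etoposide replicate 2 overlaps untreated replicate 1.

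Among the other chromosomes the etoposide libraries kept the same extremes. Density per Mb and per 1000 junctions near the bait was lowest on the X chromosome, at 0.966 and 0.0952 in etoposide replicates 1 and 2, and highest on chromosome 19, at 3.53 and 0.347. Densities were not corrected for copy number, and the X chromosome also had the fewest protein-coding genes per Mb (5.75). In the untreated libraries the lowest were chromosomes 7 (0.138) and 14 (0.00949) and the highest chromosomes 2 (0.552) and 19 (0.0391). As a description over 19 chromosomes, Spearman's rank correlation of density with protein-coding genes per Mb was 0.805 and 0.647 with and 0.140 and 0.368 without etoposide, and Pearson's r was 0.728 and 0.667 with and 0.0662 and 0.355 without. The points of a library share its depth, and the untreated libraries had as few as 6 junctions on a chromosome. Windows within chromosomes were then divided by gene content. Of the 260 windows of 10 Mb off chromosome 6, the 64 richest in genes (107 to 314 genes each, 24.6% of windows) took 39.1% and 39.5% of etoposide prey and 22.9% and 32.2% of untreated prey. The 66 poorest (0 to 37 genes, 25.4% of windows) took 11.6% and 12.7% of etoposide prey and 20.2% and 22.0% of untreated prey. In both classes the etoposide libraries lay on 1 side of both untreated ones, though this difference was not tested. The chromosome 2 window with 83 junctions in untreated replicate 1 has 73 genes and is in neither class. Its junctions still count in that library's total of 615, which lowers both of its shares.

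Over 275 windows of 10 Mb, chromosome 6 included, 222 were higher with etoposide and 0 lower (80.7% and 0.0%, limma adjusted p under 0.05). Without the replicate block 0 passed in limma, and 20 were higher at an unadjusted p under 0.05. Scaled to prey outside chromosome 6, so that only the distribution over the genome is compared, 0 windows were higher and 11 lower (4.0%) in limma, with 13 higher and 38 lower at an unadjusted p under 0.05. Of these 11, 4 held 0 junctions in all 4 libraries, so their call comes from the pseudocount of 0.5 and the library totals alone. These 4 are among the 5 of the 11 that held 0 junctions in both etoposide libraries. In any window with few junctions the pseudocount pushes the difference down, because the untreated libraries hold fewer prey. The 11 windows held 0 to 21 protein-coding genes, with a median of 14, against 60.5 over all 260 windows off chromosome 6. Their low gene content cannot be told apart from their low counts, so no conclusion is drawn from it.

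Along chromosome 6 the etoposide junctions thinned with distance to the left of the break, towards the centromere, while to the right a gap of several Mb came before a second maximum. To the left, density per Mb and per 1000 junctions near the bait in etoposide replicate 1 was 91.0 at 1 to 2 Mb, 55.1 at 2 to 5 Mb, 33.6 at 5 to 10 Mb, 29.5 at 10 to 20 Mb and 10.7 beyond 20 Mb. In etoposide replicate 2 the same bins had 9.97, 5.65, 2.99, 2.72 and 1.11, the same order. In both libraries, however, the intervals of the bins at 5 to 10 and 10 to 20 Mb overlap. In replicate 2 those at 1 to 2 Mb (7.12 to 13.6) and 2 to 5 Mb (4.39 to 7.16) overlap as well. To the right, etoposide replicate 1 had 6.68 at 1 to 2 Mb, 3.34 at 2 to 5 Mb, 43.7 at 5 to 10 Mb, 25.1 at 10 to 20 Mb and 9.87 at 20 to 40 Mb, then 32.01, 21.8 and 21.1 in the 3 bins from 40 Mb to the end. Etoposide replicate 2 had 0.997, 0.581, 5.18, 2.14, 0.992, 3.03, 2.11 and 1.88. Both libraries therefore placed the lowest density of the chromosome at 2 to 5 Mb to the right, and both had another minimum at 20 to 40 Mb on that side. In replicate 2 these minima rest on 7 and 67 junctions and their intervals overlap.

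With etoposide 11 of the 13 distance bins were higher (84.6%, limma adjusted p under 0.05), and without the replicate block 10. The 2 that did not pass were the bins nearest the break on the right. At 1 to 2 Mb there were 1 and 4 junctions without and 8 and 4 with etoposide, a log2 difference of 1.40 ± 1.08 (SE; limma adjusted p = 0.216). This bin held 22 protein-coding genes, 16 of which carry the symbols of olfactory, taste or pheromone receptors, families known from sensory cells. At 2 to 5 Mb there were 1 and 5 junctions without and 12 and 7 with etoposide, a log2 difference of 1.90 ± 1.08 (limma adjusted p = 0.109). That bin held the midpoint of 1 protein-coding gene. The bin at the same distance on the left, with 25 genes, had 2 and 1 junctions without and 198 and 68 with etoposide, and rose by 6.06 ± 1.08 on the log2 scale (limma adjusted p = 0.000538). The 13 bins share 1 pooled spread, and scaled to prey outside chromosome 6 none of them passed in limma, with 2 higher at an unadjusted p under 0.05.

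**Figure D2:**
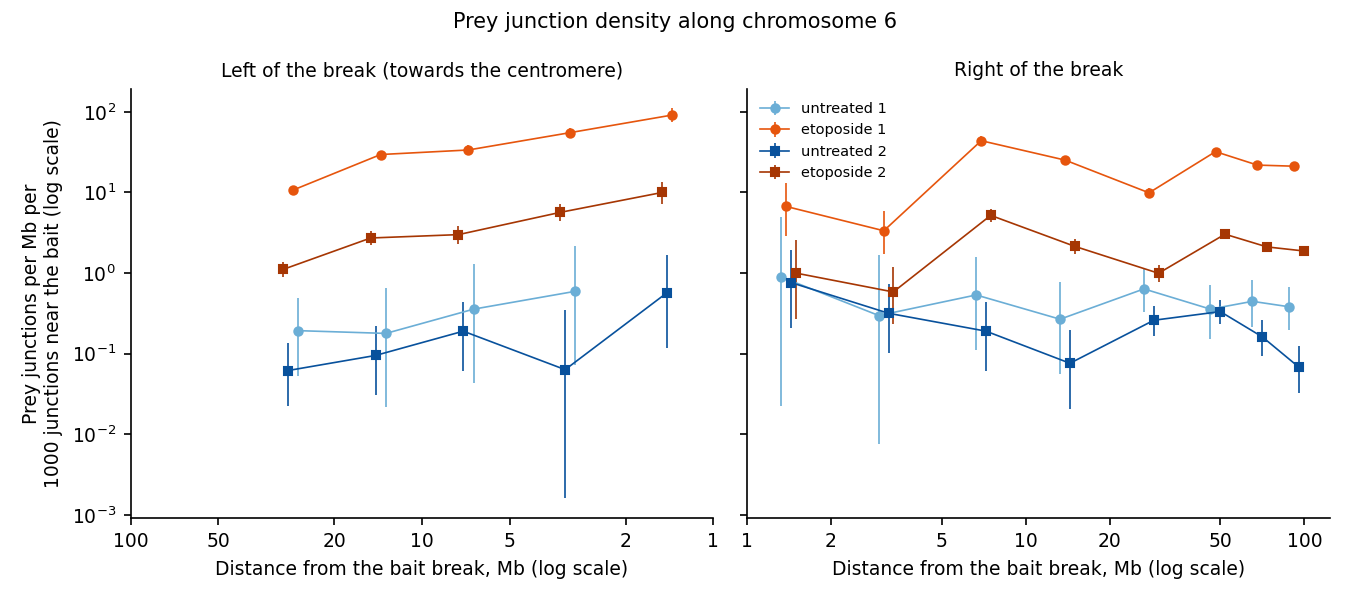
Prey junctions per Mb and per 1000 junctions near the bait (log axis) against distance from the bait break (log axis) on each side, 1 line per library, with exact 95% Poisson intervals that cover counting error only. Both etoposide lines decline towards the centromere and dip at 1 to 5 Mb on the right, and the bin of untreated replicate 1 with 0 junctions, at 1 to 2 Mb on the left, is not drawn.

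The fitted decline was the slope of log density on log distance, with the counts and lengths of left and right merged at each distance. It came to -0.0991 and -0.291 in the untreated libraries and to -0.186 and -0.232 in the etoposide libraries. The decline on the left and the gap on the right are mixed in it, and neither side was fitted alone. The untreated values lay on both sides of the etoposide values. The mean difference was -0.0136 (exact permutation within pairs, two-sided, p = 1.0). The side of the break moved more. Of chromosome 6 prey, 16.7% (95% Wilson interval 9.31 to 28.0) and 16.3% (10.8 to 23.8) lay to the left without and 28.3% (26.9 to 29.7) and 28.7% (26.3 to 31.3) with etoposide, where the left side makes up 26.5% of the length. The rise was 103-fold on the left and 52.2-fold on the right in replicate 1, and 23.6-fold and 11.4-fold in replicate 2, but the left side rests on 10 and 20 untreated junctions.

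The gene with the most etoposide junctions in the distance bins differed widely in size and role. Nearest on the left was Braf, the kinase between Ras and MEK, with 0 and 0 junctions without and 20 and 19 with etoposide. At 2 to 5 Mb it was Hipk2, a nuclear kinase of the p53 response, with 0 and 0 against 38 and 16. At 5 to 10 Mb it was Exoc4, a subunit of the exocyst that tethers secretory vesicles, with 0 and 3 against 64 and 22. These genes were picked for their etoposide junctions, so their counts are a description and are not scaled to depth. Farther left came Fam3c, which encodes a secreted factor, with 0 and 0 against 37 and 11, and St7 with 0 and 0 against 22 and 5. Per kb of gene, over both etoposide libraries, Fam3c had 0.968 junctions, Braf 0.319, Hipk2 0.286, Exoc4 0.119 and St7 0.108.

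On the right, from 5 Mb outwards, Igf2bp3, an RNA-binding protein, came first with 0 and 0 against 12 and 5. It was followed by Gars, the glycyl-tRNA synthetase, with 0 and 0 against 25 and 5, and Kcmf1, a ubiquitin ligase, with 0 and 0 against 13 and 5. Foxp1, a transcription factor needed early in B-cell development, had the most of the genes named here, with 3 and 27 against 83 and 37. Its 27 junctions in untreated replicate 2 were most of the 35 in that bin. Vgll4, a cofactor of TEAD factors, had 0 and 0 against 27 and 11, and Itpr2, an intracellular calcium channel, 0 and 0 against 36 and 12. Gars stood at 0.723 etoposide junctions per kb and the other genes named to the right of the break at 0.122 to 0.347.

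Prey outside chromosome 6 lay nearer to gene starts with etoposide. Starts were those of protein-coding genes in the RefSeq promoter table (GRCm38.p6), which gave 21045 starts for 17274 of 21523 genes and none on chromosome 18, so that chromosome was left out here. Within 5 kb of a start lay 57 of 594 prey junctions in untreated replicate 1 (9.60%, 95% Wilson interval 7.48 to 12.2) and 24 of 238 in untreated replicate 2 (10.1%, 6.87 to 14.6). In etoposide replicates 1 and 2 there were 1211 of 6222 (19.5%, 18.5 to 20.5) and 382 of 1968 (19.4%, 17.7 to 21.2). The groups did not overlap, and these windows make up 6.92% of the length. The difference was 9.87 percentage points in replicate 1 (Fisher's exact test, two-sided, adjusted over 10 tests, p = 3.34e-09) and 9.33 in replicate 2 (adjusted p = 0.00132). These tests compare the libraries and count each junction as independent, whereas the exact permutation over the 2 pairs gave p = 0.5. The median distance to the nearest start came to 102 and 68.3 kb in the untreated and 26.5 and 26.4 kb in the etoposide libraries, against 87.1 kb for positions spaced evenly along the chromosomes.

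The excess was steepest in the first kb of the gene. From 0 to 1 kb after the start the share of prey over the share of length was 6.10 (5.46 to 6.82) and 6.28 (5.16 to 7.63) with etoposide. It was 1.31 (0.603 to 2.84) and 4.37 (2.23 to 8.44) without, on 6 and 8 junctions. In the kb before the start the etoposide libraries had 3.09 and 3.37 and the untreated ones 0.233 and 2.32. In untreated replicate 2, then, the interval at the start overlapped that of the etoposide libraries, and a difference within 1 kb was not detectable at its depth. From 20 to 50 kb into the gene both etoposide libraries were still above the share of length, at 1.62 (1.53 to 1.72) and 1.501 (1.34 to 1.67), while at the same distance before the start they were at 1.04 (0.953 to 1.13) and 1.09 (0.942 to 1.27).

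**Figure D3:**
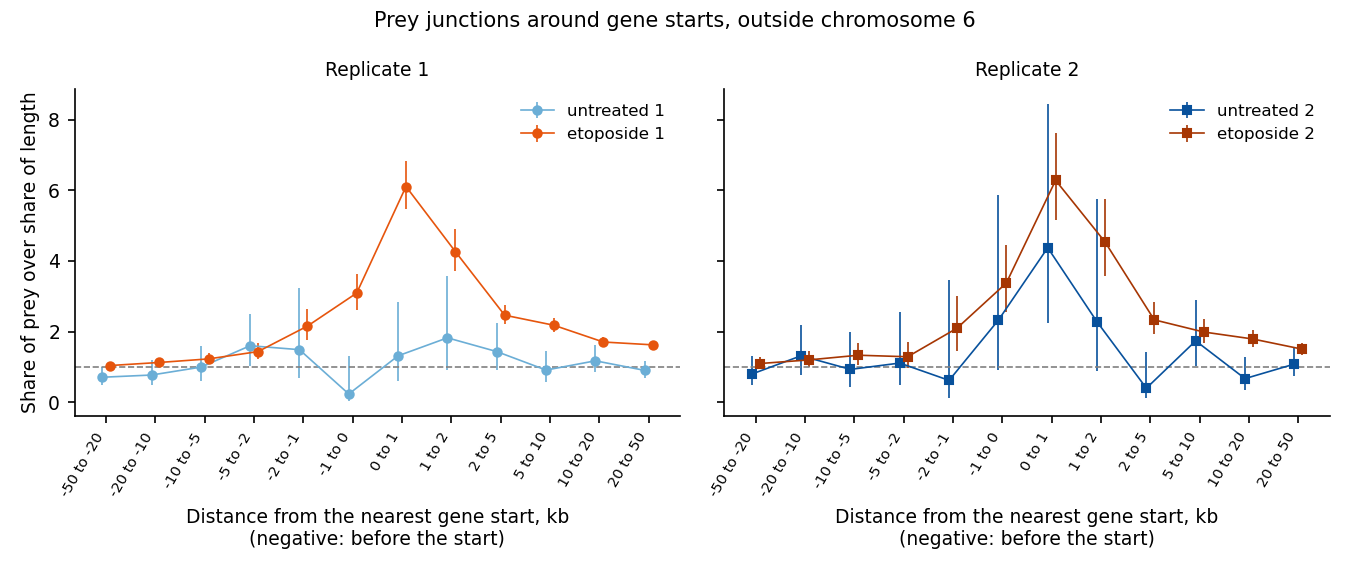
Share of prey over share of chromosome length by distance from the nearest gene start, positive in the direction of transcription, for prey outside chromosomes 6 and 18, with 95% intervals from Wilson's method, 1 panel per replicate. Both etoposide lines peak at 0 to 1 kb, at 6.10 and 6.28, and stay above the dashed line at 1 into the gene.

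Taken by strand, etoposide prey lay more often inside the gene than before it. Of prey within 5 kb of a start, 43.9% (31.8 to 56.7) and 41.7% (24.5 to 61.2) lay upstream without and 32.9% (30.4 to 35.6) and 32.5% (28.0 to 37.3) with etoposide, where length alone gives 47.7%. Both etoposide libraries were lower than both untreated ones, but the difference within pairs did not pass (two-sided Fisher's exact test, p = 0.283 and 0.469 after adjustment). Within 2 kb of a start the mean difference changed sign, to 0.678 percentage points. For genes on the plus strand the upstream share with etoposide was 34.7% and 34.9%, and for genes on the minus strand 31.4% and 30.0%, so the skew followed the direction of the gene and not that of the reference. Within genes, prey read in the direction of transcription in 51.8% and 47.6% of junctions without and 48.2% and 47.4% with etoposide, and neither difference passed (two-sided Fisher's exact test, p = 0.469 and 1.0 after adjustment).

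Off chromosome 6 the start-proximal junctions were spread over many genes. Of 16322 genes with a start there, 6.94% and 2.48% had at least 1 junction within 5 kb of it in etoposide replicates 1 and 2, 8.91% in either and 0.515% (84 genes) in both, against 0.361% and 0.153% in untreated replicates 1 and 2 and 0.509% in either of them. Hit rates here and below are not scaled to the number of prey. Off chromosomes 6 and 18 that number was 594 and 238 without and 6222 and 1968 with etoposide. No gene exceeded 5 such junctions over both etoposide libraries among those hit in each. Blnk, the adaptor that links the pre-B cell receptor to its kinases, had 3 and 2, and Gse1, a gene of a histone demethylase complex, 2 and 3. Prkcd, a protein kinase C, had 1 and 3, while Slco4a1, an organic anion transporter, and Cxcr4, the chemokine receptor that keeps B-cell precursors in the marrow, each had 3 and 1. All 5 had 0 in both untreated libraries. A further 10 genes listed by the same rule had 3 in all and 0 without etoposide, among them Bax, an effector of cell death, Ptger4, a prostaglandin receptor, Mxi1, an antagonist of Myc, and Mef2d, a transcription factor. They were taken from 17 genes tied at 3, so their order carries no weight.

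Gene lists chosen for this cell type were hit at the following rates off chromosome 6. They are to be read against 8.91% of all genes in either etoposide library and 0.509% in either untreated one. Members on chromosome 6 or without a listed start were left out, which leaves 18 of 25 B-lineage genes. Of these 18, 8 had a start-proximal junction in either etoposide library (44.4%) and 2 in either untreated one. By library the untreated rates were 11.1% and 5.56%, against 0.361% and 0.153% of all genes. The list thus lay above all genes without etoposide too, on 2 and 1 genes. After Blnk came Ikzf1, the lymphoid factor Ikaros, with 2 and 0 junctions with etoposide and 1 and 1 without, and Foxo1, Irf8, Syk, Tcf3, Il7r and Cd79a had 1 each. The immediate-early list, genes that respond fast to stimulation, had 6 of 16 (37.5%) and 0 in the untreated libraries. Tnfaip3, an inhibitor of NF-kB signalling, led it with 3 and 0, Btg1 had 2 and 0, and Btg2 had 1 and 1. All but Btg2 were hit in etoposide replicate 1 alone.

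The list of genes known from leukaemia translocations had 8 of 20 (40%) and 0 without etoposide. In it Bcl6, a repressor of the germinal centre programme, had 3 and 0, and Rara, the retinoic acid receptor, had 2 and 1. Kmt2a, the gene most often rearranged in leukaemia after etoposide therapy, had 0 junctions near its start and 1 in its body, in etoposide replicate 1. Ribosomal protein genes had 12 of 58 (20.7%), with Rpl11 and Rps19 hit in both etoposide libraries, and 1 in either untreated library. Genes of chromatin loops had 2 of 8 (25%), Mau2 of the cohesin loader and the cohesin subunit Stag1. Topoisomerase and end-joining genes had 3 of 17 (17.6%), of which Top2b, the topoisomerase II of non-dividing cells, had 1 and 1. Long genes of neurons, which pre-B cells are not known to transcribe, had 1 of 10 (10.0%), Ank2 with 1 and 1. The lists are short, they were chosen with results on these libraries known, and neither gene length nor neighbouring genes were matched.

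On chromosome 6 itself the same measure was higher. Of 952 genes with a start there, 33.9% and 18.5% had a junction within 5 kb of it in etoposide replicates 1 and 2 and 0.63% and 1.16% in the untreated ones. The share of chromosome 6 prey within 5 kb of a start was 18.2% (17.0 to 19.5) and 19.8% (17.6 to 22.1) with and 10.0% (4.66 to 20.1) and 9.76% (5.67 to 16.3) without etoposide, where length gives 6.67%. The etoposide shares lay close to those of the other chromosomes, although far more of the genes were hit. The genes with most junctions near the start, picked after their values were seen, were Apobec1 with 12 and 5 and Foxp1 with 10 and 6 in etoposide replicates 1 and 2. Apobec1 encodes a cytidine deaminase that edits RNA. It had 0 junctions there in both untreated libraries, and Foxp1 had 0 and 2.

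The orientation of joins was close to even over most of the genome. Off chromosome 6 and outside antigen receptor loci, 48.8% (44.8 to 52.7) and 53.9% (47.6 to 60.01) of prey read on the plus strand without and 49.9% (48.7 to 51.1) and 50.3% (48.2 to 52.5) with etoposide. On mouse chromosomes, whose centromere is at 1 end, the 2 strands stand for joins that keep 1 centromere or give 2. The intervals of both etoposide libraries included 50%, and the pairs differed by 1.10 percentage points (-3.04 to 5.23) and -3.54 (-10.1 to 3.07), neither of which passed (two-sided Fisher's exact test, p = 0.681 and 0.469 after adjustment). Joins at the kappa locus were likewise even, at 46.8% and 48.3% with etoposide.

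Close to the bait orientation depended on distance and side. Within 100 kb of the break 92.3% and 87.3% of junctions read on the plus strand without and 92.7% and 88.4% with etoposide, so the replicates differed more than the treatments. Between 100 kb and 1 Mb there were only 2 and 5 junctions without but 185 and 71 with etoposide. Per junction within 100 kb that was 102-fold more in replicate 1 (25.4 to 414) and 18.98-fold more in replicate 2 (7.66 to 47.0). Most of the etoposide junctions in this range were on the left, 149 of 185 and 50 of 71, and of these 79.2% (72.0 to 84.9) and 84.0% (71.5 to 91.7) read on the plus strand, the direction that would close the intervening DNA into a circle. On the right 52.8% (37.0 to 68.0) and 57.1% (36.5 to 75.5) did. The segments of the T-cell receptor beta locus span positions 40891296 to 41558371, so they take up much of this range on the left, and their part in the result was not tested. Beyond 1 Mb the left side had 52.1% (49.2 to 55.1) and 51.0% (45.8 to 56.1), and the right 49.5% and 51.2%, so the preference seen on the left below 1 Mb was not found over the whole of that side beyond it. In the bin at 1 to 2 Mb left it was 56.9% and 77.5%, on 109 and 40 junctions.

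**Figure D4:**
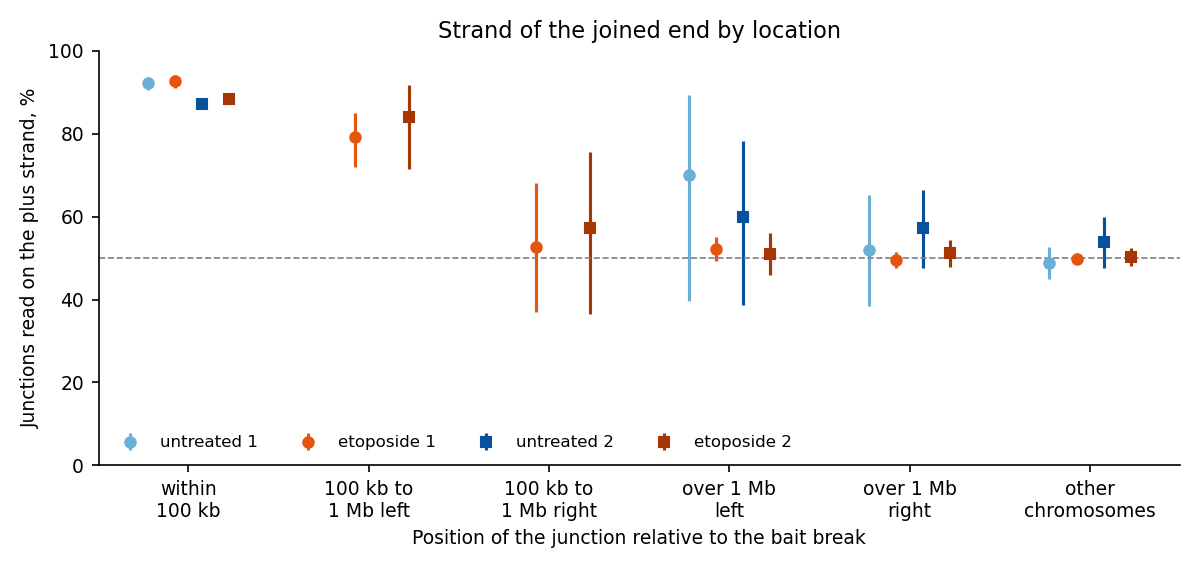
Percentage of junctions read on the plus strand by position relative to the bait break, with 95% Wilson intervals, for classes with at least 10 junctions in a library. Etoposide junctions at 100 kb to 1 Mb on the left stand at 79.2% and 84.0%, and those beyond 1 Mb and on other chromosomes at 49.5% to 52.1%.

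Joins on chromosome 6 that would delete the DNA between the break and the prey, those on the right that read on the plus strand, made up 43.3% (31.6 to 55.9) and 48.0% (39.3 to 56.7) of its prey without and 35.5% (34.0 to 37.0) and 36.5% (33.9 to 39.2) with etoposide. Both etoposide values lay below both untreated ones. The differences were -7.84 percentage points (two-sided Fisher's exact test, p = 0.445 after adjustment) and -11.5 (adjusted p = 0.0483), so the pair of replicate 2 passed and that of replicate 1 did not. The share of prey on the left, given above, moved with it. Among prey on the right alone, 52.0% and 57.3% read on the plus strand without and 49.5% and 51.2% with etoposide.

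The last measure, chosen after the data had been seen, was the position on the bait at which the join lay. Prey of etoposide replicate 1 most often ended at position 41554901, which is 72 bases before the break, and the stretch within 3 bases of it was counted in all libraries. On other chromosomes 2.76% (1.73 to 4.38) and 7.35% (4.70 to 11.3) of untreated prey used it, and 24.7% (23.6 to 25.7) and 27.0% (25.1 to 28.9) of etoposide prey. On chromosome 6 the untreated values were 1.67% and 5.69% and the etoposide values 21.2% and 24.6%. The groups did not overlap in either place. Because etoposide replicate 1 chose the stretch, its own pair is no test. In replicate 2 the odds ratio was 4.66 for other chromosomes (Fisher's exact test, two-sided, adjusted over 6 tests, p = 3.70e-13) and 5.42 for chromosome 6 (adjusted p = 2.59e-07). These tests set 1 library against 1 other and count each junction as independent. The 2 libraries came from different sequencing runs, so treatment and run cannot be told apart in this pair. No test over pairs was run for this measure. Near the bait the same pair had 2.88% without and 3.31% with etoposide (adjusted p = 0.249), and in the antigen receptor loci 2.92% and 2.59%. In replicate 1 both were higher with etoposide, at 2.22% and 6.43% near the bait and 1.67% and 7.08% in the antigen receptor loci, so the replicates differed there.

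Several etoposide joins at that stretch are printed here to make the structure visible. Each line runs from 25 bases of bait through the bases that bait and prey share, in capitals, to 25 bases of prey, in mm10. The Foxp1 join is at position 99261840 (minus strand, etoposide replicate 2), and the Exoc4 join at 33253776 (minus, replicate 2). The Braf joins are at 39722921 (plus, replicate 1) and 39629753 (plus, replicate 2). The Hipk2 joins are at 38691031 (minus, replicate 1) and 38739333 (plus, replicate 2), and the Blnk join is at position 40978381 of chromosome 19 (plus, replicate 1). Each is the first by position in its gene and library with 3 to 6 shared bases, and for Foxp1 and Exoc4 the join of replicate 1 is not printed.
Foxp1: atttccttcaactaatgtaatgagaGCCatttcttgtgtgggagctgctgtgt
Exoc4: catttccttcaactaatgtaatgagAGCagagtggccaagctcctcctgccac
Braf 1: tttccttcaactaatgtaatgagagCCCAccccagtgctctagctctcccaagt
Braf 2: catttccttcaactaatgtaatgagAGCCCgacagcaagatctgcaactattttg
Hipk2 1: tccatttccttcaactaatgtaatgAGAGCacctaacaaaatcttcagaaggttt
Hipk2 2: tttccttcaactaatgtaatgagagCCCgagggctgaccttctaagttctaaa
Blnk: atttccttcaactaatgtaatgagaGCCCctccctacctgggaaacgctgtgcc

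**Figure D5:**
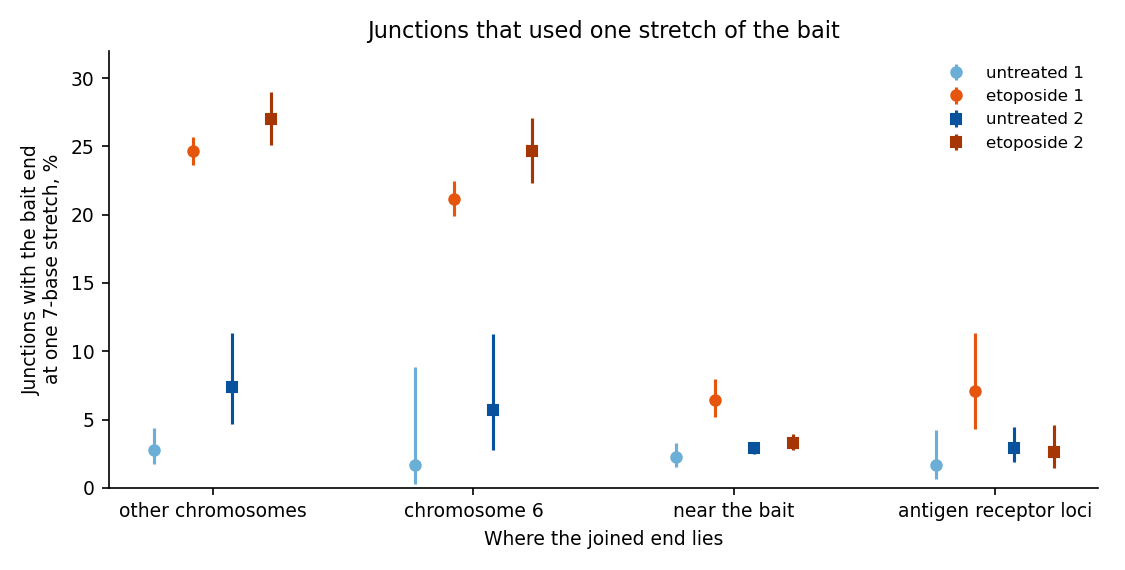
Percentage of junctions whose bait part ends in the 7-base stretch around position 72 bases before the break, by where the prey lies, with 95% Wilson intervals. Etoposide prey on other chromosomes and on chromosome 6 stands at 21.2% to 27.0% and the untreated prey at 1.67% to 7.35%.

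Outside antigen receptor loci, 42.1% and 56.0% of untreated and 73.9% and 72.5% of etoposide prey shared 2 or more bases with the bait. Inserted bases were found in 17.6% and 13.9% of untreated and 3.76% and 3.28% of etoposide prey, and joins with neither in 25.8% and 16.8% against 11.0% and 11.7%. The groups did not overlap in any of these 3 shares, and none of them was tested. At the kappa and other antigen receptor loci the shares with 2 or more shared bases were 78.2% and 75.9% without and 75.0% and 72.2% with etoposide, so there both pairs were slightly lower with etoposide. Near the bait they were 61.2% and 55.6% without and 65.5% and 53.5% with etoposide, and the pairs differed in direction. Bait ends had lost a median of 20 and 44 bases without and 51 and 60 with etoposide. When prey at the stretch was left out, the mean log2 rise outside chromosome 6 was 3.02 and the mean difference in the share within 5 kb of a start 8.83 percentage points. Whether these joins formed in cells or during library preparation was not tested.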

How the data were processed

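Translocation junctions were sequenced on the MiSeq platform and called with the assay's standard pipeline, as the labels' protocols state. Per the file headers, the deposited files hold 1 junction per row with its position, strand and read, and the builds mm10 and GRCm38.p2 and bedtools are named in the submitters' processing notes. The aligner's version is not given in the sources used here. Junctions were counted here per chromosome, 10-Mb window and distance bin, after leaving out antigen receptor loci (at least 10 annotated segments with gaps of at most 1 Mb). Counts plus 0.5, per 1000 junctions within 1 Mb of the bait, were compared on the log2 scale with limma 3.58.1 in R 4.3.3, with the replicate number as a block, Benjamini-Hochberg adjustment and a threshold of 0.05. The pairing comes from the labels, which name each etoposide library's control. Deviations of same-numbered libraries from their group means went the same way (means of 1.53 and 1.67 on the log2 scale over 275 windows), so the pairing was seen in overall level. Across windows their correlation was -0.0394. Untreated windows hold few junctions, so that value cannot show whether the pairs also shared a pattern. Shares were compared within pairs with Fisher's exact test and over pairs with the exact permutation test, in Python 3.11.15 with scipy 1.17.1. Reads were amplified without molecular identifiers, so intervals cover counting error only. Named genes were, off chromosome 6, the 15 with most junctions near their start and at least 1 in each etoposide library, on chromosome 6 the gene with most in each bin (1 is not reported here), and the leading members of each list. Members and lists were chosen with earlier results of these data known. The scripts were tested on simulated data.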

Additional observations from a re-analysis of the deposited data

Results flagged for a closer look

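Junctions on unplaced scaffolds lie outside the chromosomes described above. There were 11 in etoposide replicate 1 and 5 in etoposide replicate 2, against 5 and 0 in untreated replicates 1 and 2. Per 1000 junctions near the bait these were 9.18 and 1.25 with and 4.45 and 0 without etoposide, so each etoposide library was above its own control and etoposide replicate 2 was below untreated replicate 1.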

How the results depend on the processing

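The counts of calls depend on the scale and, for chromosomes and windows, on the replicate block. Without the replicate block 0 chromosomes, 0 windows and 10 distance bins passed, against 20, 222 and 11 with it. Per 1000 prey junctions outside chromosome 6 the counts were 1, 11 (all lower) and 0. Leaving out 1 library at a time, which also breaks a pair and assumes that a lone library varies like the others, gave 0 chromosomes and 0 windows in every case (0 to 1 and 0 to 63 at an unadjusted p under 0.05 in limma) and 0 to 12 bins. The mean log2 rises kept their direction in each such case, at 1.60 to 5.15 outside chromosome 6 and 3.14 to 6.52 on it, and the latter was 2.57 instead of 4.83 with antigen receptor loci kept. The differences in slope (-0.110 to 0.0826, with 0.0826 without untreated replicate 1 and 0.00952 without etoposide replicate 2), in plus-strand share (-3.77 to 1.33 percentage points, positive without untreated replicate 2) and in reading with the gene (-3.94 to 0.257, positive without untreated replicate 1) changed sign. The upstream share within 2 kb of a start changed sign too, to 0.678. The cause was not tested. Leaving out prey at the bait stretch, an alternative chosen after seeing the data, gave 20 chromosomes, 216 windows and 11 bins. Depth limits the untreated side most: with 60 and 123 prey junctions on chromosome 6 and 245 elsewhere in untreated replicate 2, single genes cannot be compared between the groups.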
